A study of Mus musculus with 6 samples.

Results

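The L1, NCAM and CADM proteins are cell adhesion molecules of the immunoglobulin superfamily. The set comprised 10 genes chosen by family: L1cam, Nrcam, Nfasc and Chl1 of the L1 family, Ncam1 and Ncam2 of the NCAM family, and Cadm1, Cadm2, Cadm3 and Cadm4 of the CADM family. Of these 10, 9 had a probe set annotated to that gene alone and were measured, among 22180 genes tested. Cadm2 was not analysed here. The values came from expression arrays of 6 mouse cerebellum samples taken at postnatal day 7. All 6 samples carried Math1Cre. The 3 wild-type samples had wild-type Crebbp, and the 3 knockout samples were Math1Cre::CrebbpFl/Fl, with both Crebbp alleles floxed. Math1 (Atoh1) drives Cre in granule neuron precursors, so cells outside that lineage in the same tissue should keep Crebbp. Strain, sex and pooling of animals are not given in the labels, and the labels do not say whether each array had its own animal, so a p-value here covers the spread among these 6 samples and may be partly technical. The arrays read bulk tissue, in which fewer cells of a type and less RNA per cell cannot be told apart.

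L1 family proteins bind one another and other receptors between cells, hold ankyrins and through them the spectrin skeleton inside the cell, and guide growing axons. NCAM proteins bind like molecules on facing membranes, and long chains of polysialic acid on NCAM loosen that contact in young neurons. CADM proteins, also called SynCAMs or nectin-like molecules, span synaptic and axonal contacts and bind proteins of the EPB41 group and membrane-associated guanylate kinases inside the cell. In the cerebellum, L1 is found on the axons of young granule neurons, where it takes part in outgrowth and migration.

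The deposited values are log2 expression values, so a difference of 1 is a doubling. Array medians ran from 7.25 to 7.29, and the 75th percentile over all probe sets was 8.86. Crebbp read 11.96, 11.99 and 11.90 in wild type, with 11.46, 11.42 and 11.32 in knockout, each array lying on the side of its label. Zic1, a granule lineage factor, averaged 13.12 in wild type and 12.88 in knockout (limma adjusted p = 0.00823). Calb1, a Purkinje cell protein, averaged 12.36 and 12.52 (limma adjusted p = 0.0577). Defining markers of cerebellum were thus present. Ttr, the main choroid plexus transcript, lay above 10 on wild-type replicate 1 and on knockout replicates 1 and 3 (12.30, 13.77 and 13.92) and between 8.08 and 9.19 on the other 3 arrays, so results are also given without those 3 arrays.

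The adhesion genes were lower in the knockout where they changed, and most in the CADM family. With limma fitted to all 22180 genes and a threshold of 0.05 on the Benjamini-Hochberg adjusted p, 4 of the 9 measured members fell: Cadm1, Cadm3, L1cam and Nrcam. None of the 9 rose, and 5 did not pass. At an unadjusted limma p under 0.05 there were 5 members, with 0 of these above 0. At that cut there were 4533 of the 22180 genes, with 2122 of these above 0. The share of members that fell was 44.4%, where 3.94% of all genes fell, 2.72% rose and 6.67% passed in either direction. All 9 fitted changes lay below 0, with a median of -0.18, whereas 50.9% of all genes lay below 0, with a median of -0.003. The values of the groups did not overlap for 5 of the 9 members, against 25.0% of all genes. The members were picked as families with earlier results of these data known, so these counts are a description.

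**Figure D1:**
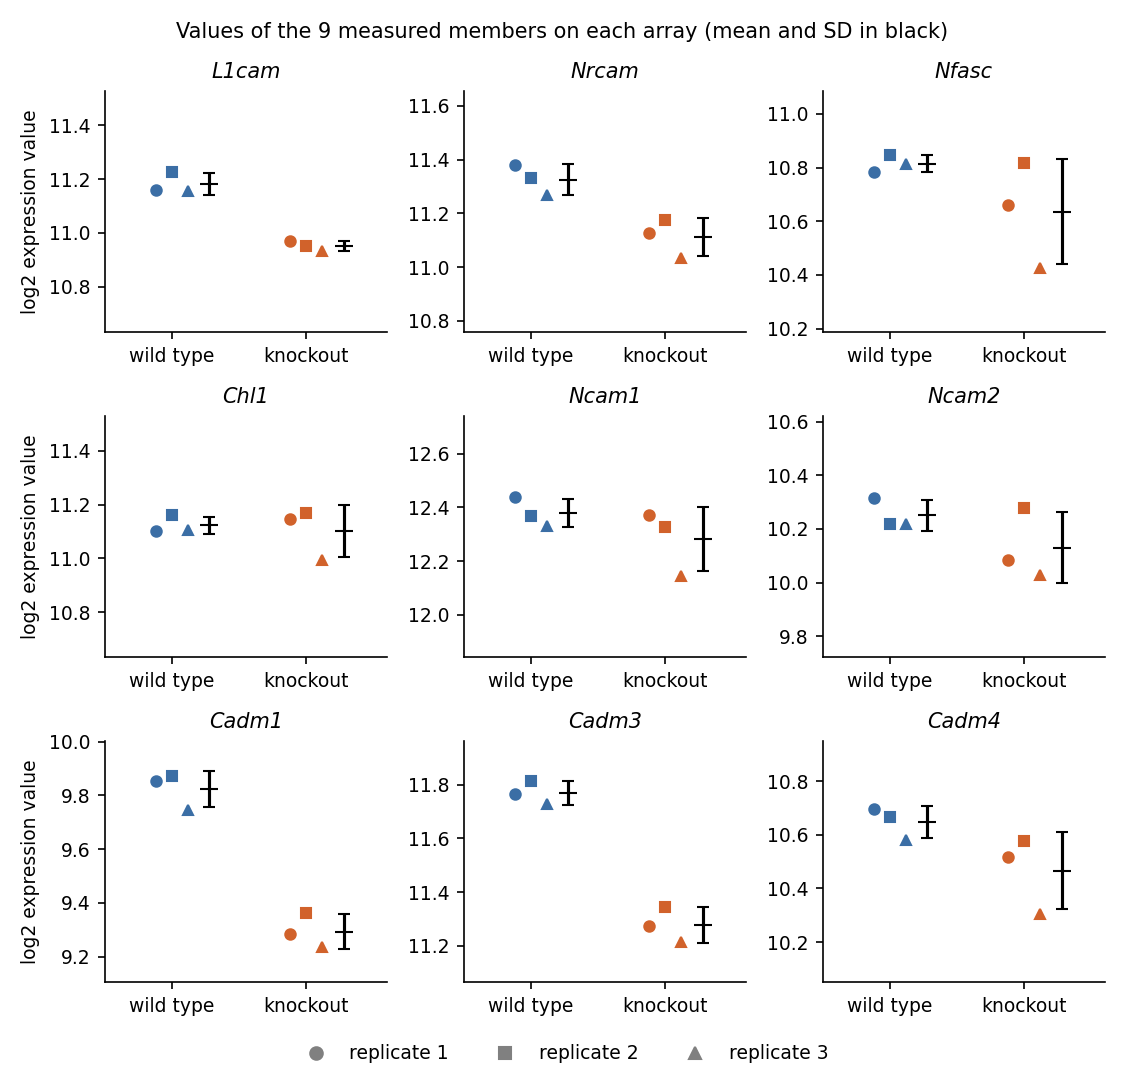
Log2 expression value of each of the 9 measured members (1 panel each, with a common axis span) on the 3 wild-type arrays (blue) and the 3 knockout arrays (orange), with symbols for the replicate number and the mean and SD of each group in black. Cadm1 and Cadm3 show the widest gap between groups, L1cam, Nrcam and Cadm4 a narrower one, and the groups of the other 4 genes overlap.

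**Figure D2:**
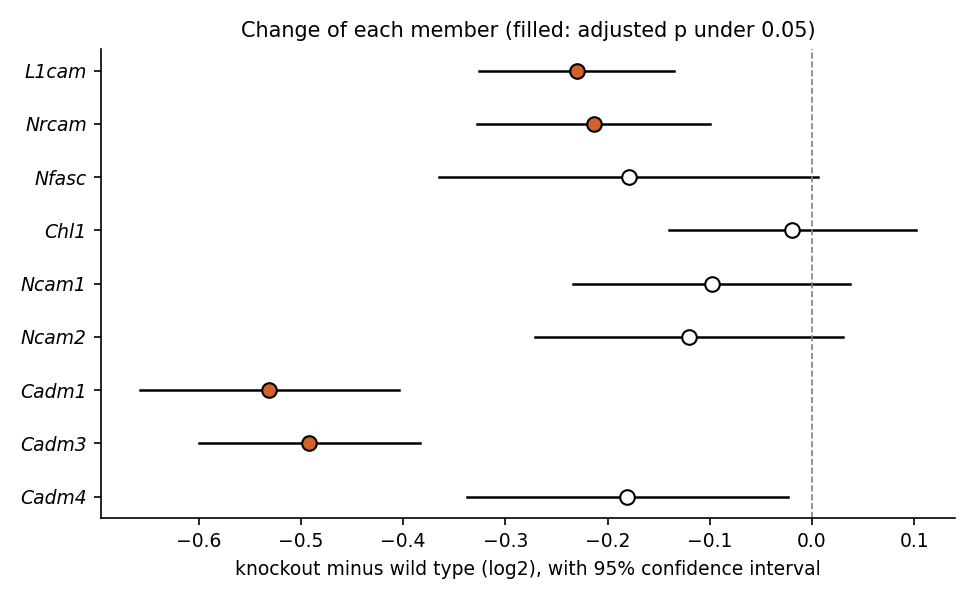
Knockout minus wild type (log2) for each member with its 95% confidence interval from limma. Filled points passed at an adjusted p under 0.05. Cadm1 and Cadm3 lie near -0.5, L1cam and Nrcam near -0.2, and Chl1 lies near 0.

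In the CADM family, Cadm1 had the largest change. CADM1 (SynCAM 1) is a synapse-organizing adhesion protein that binds itself and other CADM proteins across the cleft. Its log2 values were 9.85, 9.87 and 9.75 in wild type and 9.28, 9.36 and 9.24 in knockout. Every knockout array lay below every wild-type array. Cadm1 fell from 9.82 ± 0.07 to 9.29 ± 0.06 (SD, n = 3 each), a log2 change of -0.53 (SE 0.06, limma adjusted p = 0.000838). The knockout level was 69.2% of wild type, a 1.44-fold difference with a 95% confidence interval of 1.32 to 1.58.

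Cadm3, which encodes a CADM protein found mainly in neural tissue (SynCAM 3, Necl-1), changed by about as much. It read 11.77, 11.81 and 11.73 in wild type and 11.27, 11.35 and 11.21 in knockout, again without overlap. Cadm3 fell from 11.77 ± 0.04 to 11.28 ± 0.07 (SD, n = 3 each; log2 change -0.49, SE 0.05, limma adjusted p = 0.000559), to 71.1% of wild type. By p-value it stood at rank 57 of the 22180 genes, and Cadm1 at rank 80. Both genes passed whichever single array was left out, with changes of -0.57 to -0.50 for Cadm1 and -0.53 to -0.46 for Cadm3. Without the 3 arrays with high Ttr, which leaves 1 knockout array, they had changes of -0.45 and -0.42 and lost the call (limma adjusted p = 0.0703 and 0.0811). In that fit the lone knockout array is assumed to vary like the wild-type arrays.

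Cadm4, whose product links glia and axons as well as neurons, had a smaller change that did not pass. Its values were 10.70, 10.66 and 10.58 in wild type and 10.52, 10.58 and 10.30 in knockout. The lowest wild-type array and the highest knockout array differed by less than 0.01, so the groups barely separate. The change was -0.18 (SE 0.07, limma adjusted p = 0.177), with a 95% confidence interval of -0.34 to -0.02. Without the arrays with high Ttr it was -0.04.

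Members of the family were also compared with each other on the same array. Cadm1 minus Cadm4 was -0.84, -0.79 and -0.83 in wild type and -1.23, -1.22 and -1.07 in knockout, a shift of -0.35. Cadm3 minus Cadm4 shifted by -0.31, from 1.12 ± 0.05 to 0.81 ± 0.09 (SD, n = 3 each). Neither difference overlapped between groups, and both use the same Cadm4 values. Cadm1 minus Cadm3 moved by -0.04, from -1.95 ± 0.03 to -1.98 ± 0.01 (SD, n = 3 each), and its groups overlapped. The exact two-sided permutation test gave p = 0.10, 0.10 and 0.20 for these 3 pairs. With 3 arrays a group, 0.10 is the smallest p it can give, and over the 10 pairs of measured members within a family the Benjamini-Hochberg adjusted values of this exact test were 0.20, 0.20 and 0.333. An unequal change of Cadm4 and its relatives was thus not established at this number of arrays.

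Because CREBBP is a coactivator of CREB, which binds the cyclic AMP response element (CRE), promoters were searched for that element and for E-boxes of the kind bound by proneural factors such as ATOH1. RefSeq promoter sequences (GRCm38.p6) matched 8 of the 10 genes, Cadm1 and Ncam1 not being among them. The 250 bases before the annotated start of Cadm3 (chr1:173367696-173367945, minus strand), which fell, and of Cadm4 (chr7:24481773-24482022, plus strand), which did not pass, are shown 5′ to 3′ because only the first of these relatives passed. Capitals mark the shortened CRE, TGACG or its reverse complement CGTCA.
Cadm3: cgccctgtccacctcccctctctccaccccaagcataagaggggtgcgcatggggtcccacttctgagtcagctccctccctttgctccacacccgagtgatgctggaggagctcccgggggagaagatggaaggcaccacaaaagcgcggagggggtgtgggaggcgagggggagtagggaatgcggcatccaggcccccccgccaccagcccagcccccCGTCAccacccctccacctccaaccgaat
Cadm4: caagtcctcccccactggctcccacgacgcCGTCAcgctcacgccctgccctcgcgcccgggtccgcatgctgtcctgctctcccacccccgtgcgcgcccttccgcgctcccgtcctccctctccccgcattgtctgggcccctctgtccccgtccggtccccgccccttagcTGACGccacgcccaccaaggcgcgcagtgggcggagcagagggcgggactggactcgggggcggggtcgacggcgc
Cadm3 held 1 shortened CRE and Cadm4 held 2. The shortened CRE occurs on either strand in 17.8% of the 32851 promoter windows of this length, and the full CRE, TGACGTCA, which contains it, in 1.55%. None of the 8 genes with a sequence held the full CRE. GC content was 66.8% for Cadm3 and 75.2% for Cadm4, against a median of 52.4% over all windows. A match of letters is a description and not a binding site.

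In the L1 family, 2 of 4 members fell and by less than Cadm1 and Cadm3. L1cam encodes the founding member, an axonal protein of growth and fasciculation. It read 11.16, 11.23 and 11.16 in wild type and 10.97, 10.95 and 10.93 in knockout, so the groups did not overlap and the knockout arrays lay close together. L1cam fell from 11.18 ± 0.04 to 10.95 ± 0.02 (SD, n = 3 each; log2 change -0.23, SE 0.04, limma adjusted p = 0.0126), to 85.3% of wild type. The change was -0.24 to -0.21 with any 1 array left out. Leaving out wild-type replicate 1 ended the call (limma adjusted p = 0.0565), and so did leaving out the 3 arrays with high Ttr (adjusted p = 0.334), where the change was -0.24.

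Nrcam, whose product clusters sodium channels at nodes of Ranvier and acts in axon guidance, read 11.38, 11.33 and 11.27 in wild type and 11.13, 11.17 and 11.04 in knockout. The groups did not overlap, with a gap of about 0.1 between the nearest arrays. Nrcam fell from 11.33 ± 0.06 to 11.11 ± 0.07 (SD, n = 3 each; log2 change -0.21, SE 0.05, limma adjusted p = 0.0373). The call ended in 4 of the 6 fits that leave out an array: wild-type replicates 1 and 2 and knockout replicates 1 and 3 (limma adjusted p = 0.164, 0.101, 0.0874 and 0.0861), with changes of -0.19, -0.21, -0.22 and -0.18. Without the arrays with high Ttr the change was -0.13.

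Nfasc encodes neurofascin, which anchors the axon initial segment in its neuronal form and joins oligodendrocytes to axons in its glial form. The probe set does not separate these forms here. Its values were 10.78, 10.85 and 10.81 in wild type and 10.66, 10.82 and 10.43 in knockout. Knockout replicate 2 lay within the wild-type range and knockout replicate 3 far below it. The change was -0.18 (SE 0.08, limma adjusted p = 0.262), with a knockout SD of 0.20 against 0.03 in wild type. Omitting knockout replicate 3 gave -0.08, and omitting the arrays with high Ttr gave -0.01.

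Chl1, the close homolog of L1, which directs neurite growth and is shed by proteases, had the change nearest 0. Its log2 values were 11.10, 11.16 and 11.11 in wild type and 11.15, 11.17 and 10.99 in knockout. Of the 3 knockout arrays, 1 lay above all wild-type arrays and 1 below. The change was -0.02 (SE 0.05, limma adjusted p = 0.898), with a 95% confidence interval of -0.14 to 0.10. Its sign turned without knockout replicate 3, where the change was 0.04.

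Within the L1 family the other 3 members were each set against Chl1 on the same array. L1cam minus Chl1 was 0.06, 0.07 and 0.05 in wild type and -0.18, -0.22 and -0.06 in knockout. Nrcam minus Chl1 fell by 0.19, from 0.20 ± 0.06 to 0.01 ± 0.03 (SD, n = 3 each). Nfasc minus Chl1 shifted by -0.16, from -0.31 ± 0.01 to -0.47 ± 0.11 (SD, n = 3 each), although Nfasc itself did not pass. All 3 differences were separate between groups, each with an exact permutation p of 0.10, the smallest possible, and 0.20 after adjustment over the 10 pairs, so none passed. The 3 use the same Chl1 values and so are not independent of each other. L1cam minus Nrcam moved by -0.02 and overlapped (exact permutation p = 0.70). The 250 bases before the start of L1cam (chrX:73880791-73881040, minus strand, the first of 2 starts listed) and of Chl1 (chr6:103510626-103510875, plus strand) are given for this pair, with capitals on the E-box CAGATG (reverse complement CATCTG).
L1cam: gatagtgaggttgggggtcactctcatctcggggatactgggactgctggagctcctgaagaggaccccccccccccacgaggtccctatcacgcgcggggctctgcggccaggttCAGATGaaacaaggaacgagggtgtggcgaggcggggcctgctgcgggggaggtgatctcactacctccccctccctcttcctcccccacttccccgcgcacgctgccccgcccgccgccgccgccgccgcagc
Chl1: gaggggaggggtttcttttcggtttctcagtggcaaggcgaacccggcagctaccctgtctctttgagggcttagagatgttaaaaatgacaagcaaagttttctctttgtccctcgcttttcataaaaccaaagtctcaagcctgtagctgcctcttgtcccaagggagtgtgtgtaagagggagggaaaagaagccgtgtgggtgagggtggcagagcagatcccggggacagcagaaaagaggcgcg
L1cam held 1 such E-box and Chl1 0. This E-box is in 14.4% of all windows, and CAGCTG, the other E-box searched, which reads the same on both strands, in 13.0%. Nrcam and Cadm3, which fell like L1cam, held 0 of either E-box. Neither L1cam, Nrcam nor Chl1 held a shortened CRE in the windows searched.

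Of the NCAM family, 0 of 2 members passed the limma threshold, and 0 had an unadjusted p under 0.05. Ncam1 encodes the neural cell adhesion molecule of neurons and glia. It read 12.44, 12.37 and 12.33 in wild type and 12.37, 12.33 and 12.15 in knockout, with overlapping groups. Its change was -0.10 (SE 0.06, limma adjusted p = 0.424) with a 95% confidence interval of -0.23 to 0.04. A further probe set was annotated to both Ncam1 and Gm11149 and so named after neither. It went from 7.74 ± 0.12 to 7.45 ± 0.08 (SD, n = 3 each), without overlap of the groups. In a limma fit of all probe sets its change was -0.29 (unadjusted p = 0.0127, adjusted p = 0.167). Ncam2, best known from olfactory axons, read 10.32, 10.22 and 10.22 in wild type and 10.09, 10.28 and 10.03 in knockout. Knockout replicate 2 lay among the wild-type arrays. The change was -0.12 (SE 0.07, limma adjusted p = 0.371), turning to 0.06 when the arrays with high Ttr were omitted. Ncam1 minus Ncam2 went from 2.13 ± 0.02 to 2.15 ± 0.12 (SD, n = 3 each).

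Of 3 genes listed as polysialyltransferases, among them those that build the polysialic acid of NCAM, 0 passed the limma threshold and 1 had an unadjusted p under 0.05. St8sia2, the enzyme most active in the developing brain, had a change of -0.21 (SE 0.06, limma adjusted p = 0.0653) without overlap of the groups, from 9.43 ± 0.06 to 9.22 ± 0.07 (SD, n = 3 each). St8sia3 had a change of 0.07 (limma adjusted p = 0.640). St8sia4, named here after its values were seen, had a change of 0.04 (limma adjusted p = 0.780), which was the list's median.

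The knockout arrays did not read the adhesion genes alike. Knockout replicate 3 had the lowest of the 3 knockout values for 9 of 9 members, where this array was lowest for 39.3% of all genes. It lay below all wild-type arrays for 9 of 9, against 32.4% of all genes. Knockout replicates 1 and 2 did so for 7 and 6 of the 9, against 30.1% and 29.8% of all genes. Knockout replicate 2 had the highest of the 3 values for 7 of 9. The wild-type arrays differed too: replicate 3 had the lowest of the 3 wild-type values for 7 of 9 members and the highest for 0. The median distance from a gene's wild-type mean was -0.17, -0.07 and -0.29 on knockout replicates 1, 2 and 3. For 7 of the 9 members the knockout SD was larger than the wild-type SD, the others being L1cam and Cadm1. Over all genes the median SD was 0.088 in knockout and 0.084 in wild type. The all-gene shares for this count and for the highest values were not computed.

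**Figure D3:**
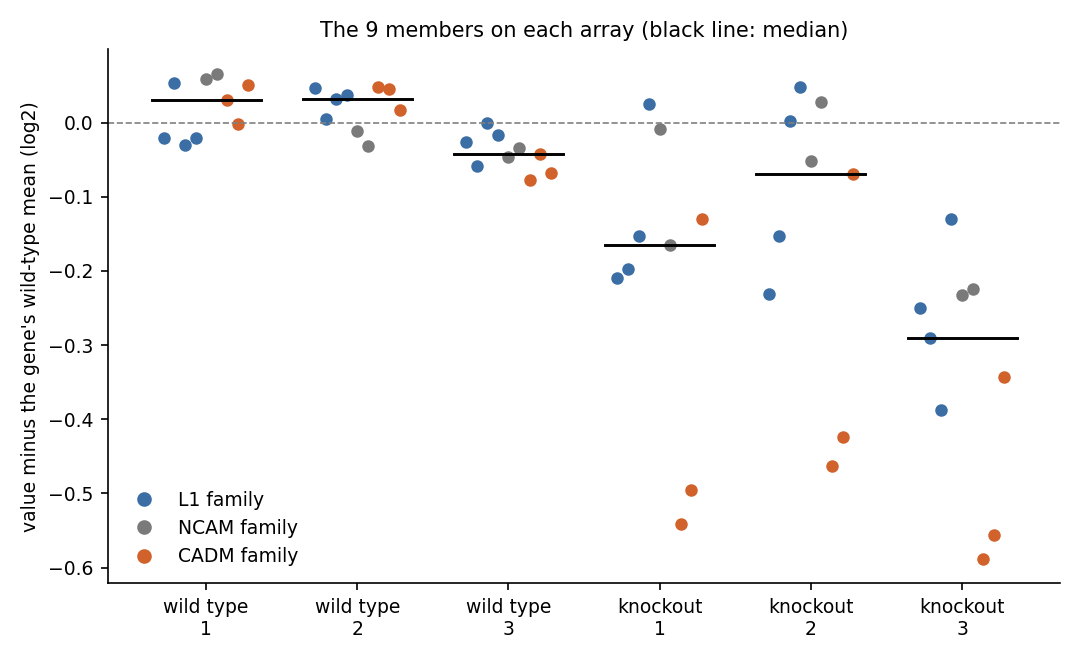
Value of each member minus that gene's wild-type mean (log2) on each of the 6 arrays, coloured by family, with the median of the 9 members as a black line. The medians of the knockout arrays are -0.17, -0.07 and -0.29, and Cadm1 and Cadm3 form the lowest pair of points on every knockout array.

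Marker genes of several cell types also differed between the arrays. Of 8 granule neuron precursor markers, the lineage in which Cre acts, 2 rose, 0 fell and 6 did not pass. The 2 were Atoh1 at 0.52 (limma adjusted p = 0.00191) and Ccnd1 at 0.24 (limma adjusted p = 0.0373). The fitted change lay below 0 for 3 of the 8, among them Mki67 at -0.14, whose groups did not overlap. The list's mean log2 level was 10.04 to 10.12 in wild type and 10.14 to 10.25 in knockout. Of 12 granule neuron markers, 7 fell, 0 rose (1 lay above 0 at an unadjusted limma p under 0.05) and 5 did not pass, and the mean log2 level of the list was 10.26 to 10.49 on wild-type and 9.89 to 10.04 on knockout arrays. Of 11 oligodendrocyte lineage markers, 1 fell (the myelin protein gene Mog) and 0 rose, but all 11 fitted changes lay below 0. Their mean level was 9.73 to 9.82 in wild type and 9.33, 9.73 and 9.03 on knockout replicates 1, 2 and 3. This order of the knockout arrays was shared by 7 of the 9 members, all but L1cam and Ncam1. The mean levels of the Bergmann glia and astrocyte, inhibitory interneuron and microglial lists also followed it, so it is not particular to oligodendrocyte genes. The share of all genes with this order was not computed. Of 9 choroid plexus markers 0 passed in limma (6 at an unadjusted p under 0.05), with mean levels of 7.25 to 7.96 in wild type and 9.08, 7.30 and 9.69 on the knockout arrays. Of 8 meningeal markers 0 passed (6 unadjusted), with mean levels of 9.06 to 9.17 and of 9.26 to 9.77. Of 10 Bergmann glia and astrocyte markers, 2 rose and 1 fell, and the mean levels overlapped (10.75 to 10.79 and 10.75 to 10.88). Of 7 Purkinje cell markers 0 passed (1 unadjusted), with a median of 0.09. Of 7 inhibitory interneuron markers, 1 fell, Lhx1 at -0.38 (limma adjusted p = 0.00347), and 0 rose (2 above 0 unadjusted). Of 5 ependymal markers, 1 rose, Dynlrb2 at 0.64 (limma adjusted p = 0.0137), and 0 fell. All 5 ependymal changes lay above 0, and the list's mean log2 level was 7.32 to 7.45 in wild type and 7.54 to 7.64 in knockout. Of 7 microglial and 7 endothelial and mural markers 0 passed (1 and 0 unadjusted). The marker genes named here were chosen after their values were seen. The part of these markers in the members' changes was not tested, and of the lists only the choroid plexus mean was fitted as a covariate. With the mean of the choroid plexus markers as a covariate, Cadm1 and Cadm3 had changes of -0.48 and -0.43 and passed (limma adjusted p = 0.0115 and 0.00758). L1cam and Nrcam had changes of -0.22 and -0.17 in that fit and did not pass (limma adjusted p = 0.0858 and 0.225).

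Genes whose products bind or process these adhesion molecules, or belong to neighbouring immunoglobulin families, were counted in 9 lists. Of their 80 genes, 74 were measured: 20 fell, 1 rose and 53 did not pass, a share of 27.0% that fell against 3.94% of all genes. Their median change was -0.16. With 1 array left out the number that fell was 10 at its lowest, on omitting wild-type replicate 1, and it was 12 on omitting either wild-type replicate 2 or knockout replicate 3. It was 10 with the choroid plexus covariate and 3 when the arrays with high Ttr were omitted, and 0 rose in either fit. Over all 22180 genes, 4533 had an unadjusted limma p under 0.05, and 2122 of these lay above 0. Of the 74 related genes at that cut, 37 lay below 0 and 2 above, Adam17 and Mmp2, both protease genes (Mmp2 is named here after its values were seen). Many are neuronal genes, and the lists were drawn up with earlier results of these data known.

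On the inner face of the membrane, 2 of the 3 ankyrin genes fell, Ank2 and Ank3. Of 6 ankyrin and spectrin genes, 3 fell, 0 rose and 3 did not pass, with a list median of -0.28. Ank3, the ankyrin-G of the axon initial segment, fell from 11.98 ± 0.01 to 11.56 ± 0.07 (SD, n = 3 each; change -0.43, SE 0.05, limma adjusted p = 0.000838). Ank2, the ankyrin-B of axon shafts, fell by 0.38. Both passed whichever array was left out. Ank1, the ankyrin first known from red blood cells, named here after its values were seen, had a change of -0.23 (limma adjusted p = 0.0957). Sptbn4, the spectrin of initial segments and nodes, fell by 0.33, but passed in 1 of the 6 fits that leave out an array, the one without wild-type replicate 3, with limma adjusted p up to 0.129 and changes of -0.38 to -0.28.

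Of 16 genes for other intracellular adaptors, 6 fell, 0 rose and 10 did not pass, with a median of -0.16. Epb41l1, a neuronal member of the EPB41 group of membrane skeleton proteins, fell from 11.12 ± 0.09 to 10.29 ± 0.04 (SD, n = 3 each; change -0.83, SE 0.06, limma adjusted p = 7.03e-05). Mpp3, a membrane-associated guanylate kinase that binds CADM1, fell by 0.63, and Cask, a kinase-like scaffold of the same group, by 0.41. Dlg4, the postsynaptic scaffold PSD-95, fell by 0.39, a call lost without wild-type replicate 1 (limma adjusted p = 0.0517). The other 2 falls, named after their values were seen, were Dcx, a microtubule protein of migrating neurons that binds neurofascin, at -0.22, and Epb41l3, a protein of the EPB41 group that binds CADM1, at -0.20. Each of these passed in 1 of the 6 fits that leave out an array: Dcx without wild-type replicate 3 and Epb41l3 without knockout replicate 2 (limma adjusted p up to 0.143 and 0.163 in the others). Epb41l1 and Mpp3 passed without the arrays with high Ttr (changes of -0.78 and -0.72, limma adjusted p = 0.00762 and 0.0141). Cask did not (-0.36, adjusted p = 0.122).

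Outside the cell, 1 of 13 measured partners fell, 0 rose and 12 did not pass. The gene that fell was Cntn2, a contactin that binds L1 family proteins and NCAM on axons. It had a change of -0.77 (SE 0.05, limma adjusted p = 4.98e-05) and of -0.74 to -0.80 with 1 array left out. The median of the list was -0.04.

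Of 6 measured signalling partners, 2 fell, 0 rose and 4 did not pass. Prkcb, a protein kinase C gene, fell by 0.44 and Gap43, a growth cone protein that takes part in NCAM signalling, by 0.34. Both passed whichever array was left out.

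Among 5 proteases that can cut these adhesion molecules from the surface, 1 rose, 0 fell and 4 did not pass. Adam17, a membrane metalloprotease that sheds L1 and other proteins, rose from 9.14 ± 0.04 to 9.40 ± 0.07 (SD, n = 3 each; change 0.26, SE 0.06, limma adjusted p = 0.0234). Omitting any 1 wild-type array or knockout replicate 1 ended that call (limma adjusted p up to 0.0864), with changes of 0.22 to 0.28. Bace1, a protease of CHL1 and L1, named after its values were seen, had a change of -0.19 (limma adjusted p = 0.0520).

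The IgLON genes encode small adhesion proteins held in the membrane by a lipid anchor. Of 5 members, 4 fell, 0 rose and 1 did not pass, with a median of -0.25. Ntm (neurotrimin) fell from 10.66 ± 0.10 to 10.21 ± 0.07 (SD, n = 3 each; change -0.45, SE 0.06, limma adjusted p = 0.00295) and Opcml by 0.45, both whichever array was left out. Iglon5 fell by 0.25 and Negr1 by 0.22. Iglon5 passed without wild-type replicate 3 or knockout replicate 2 and Negr1 without knockout replicate 1 only, with limma adjusted p up to 0.145 and 0.126 in the other such fits.

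Of the nectins, relatives of the CADM proteins, and their partner afadin, 1 of 6 fell, 0 rose and 5 did not pass. Afdn, which encodes afadin and links nectins to actin, fell by 0.23, a call that ended on leaving out any of wild-type replicates 1 and 2 and knockout replicates 2 and 3 (limma adjusted p up to 0.146). The list of 14 other immunoglobulin molecules had 3 falls, 0 rises and 11 that did not pass, with a median of -0.16. Igsf9b, an adhesion protein of inhibitory synapses, fell by 0.30, Mdga1, a modulator of synaptic adhesion, by 0.22, and Alcam, an axonal adhesion protein, by 0.22. Igsf9b and Mdga1 passed in 2 of the 6 fits that leave out an array and Alcam in 1, with limma adjusted p up to 0.163. The arrays whose loss ended the call were wild-type replicates 1 and 2 and knockout replicates 1 and 3 for Igsf9b, wild-type replicates 1 and 3 and knockout replicates 2 and 3 for Mdga1, and all but knockout replicate 2 for Alcam. Without the arrays with high Ttr, 3 genes of the 9 lists passed, Cntn2, Epb41l1 and Mpp3. Others lost their call in that fit with changes close to those from all 6 arrays: -0.41 for Ank3, -0.37 for Ank2, -0.40 for Prkcb, -0.32 for Gap43 and -0.42 for Ntm (limma adjusted p = 0.0854, 0.122, 0.105, 0.168 and 0.111). Opcml had a change of -0.34 there (adjusted p = 0.144).

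**Figure D4:**
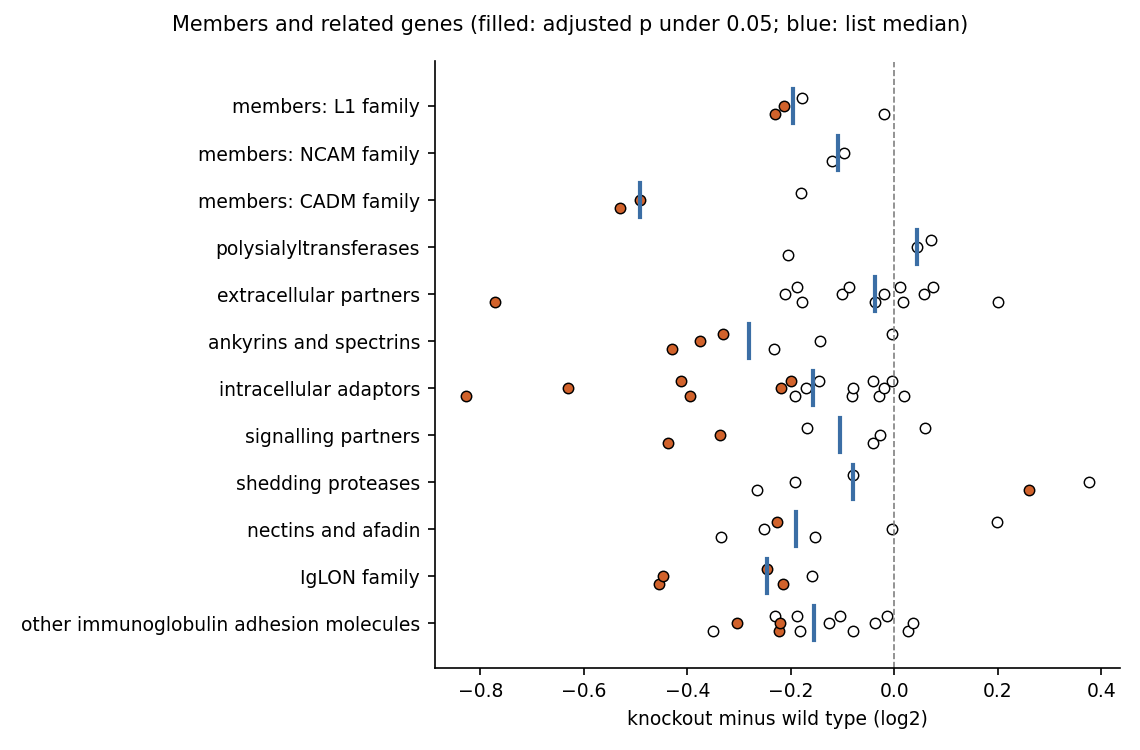
Knockout minus wild type (log2) of each measured gene in the 3 member families and the 9 related lists, with filled points for an adjusted p under 0.05 and a blue line at the list median. Falls outnumber rises: 20 related genes fell and Adam17 alone rose.

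**Figure D5:**
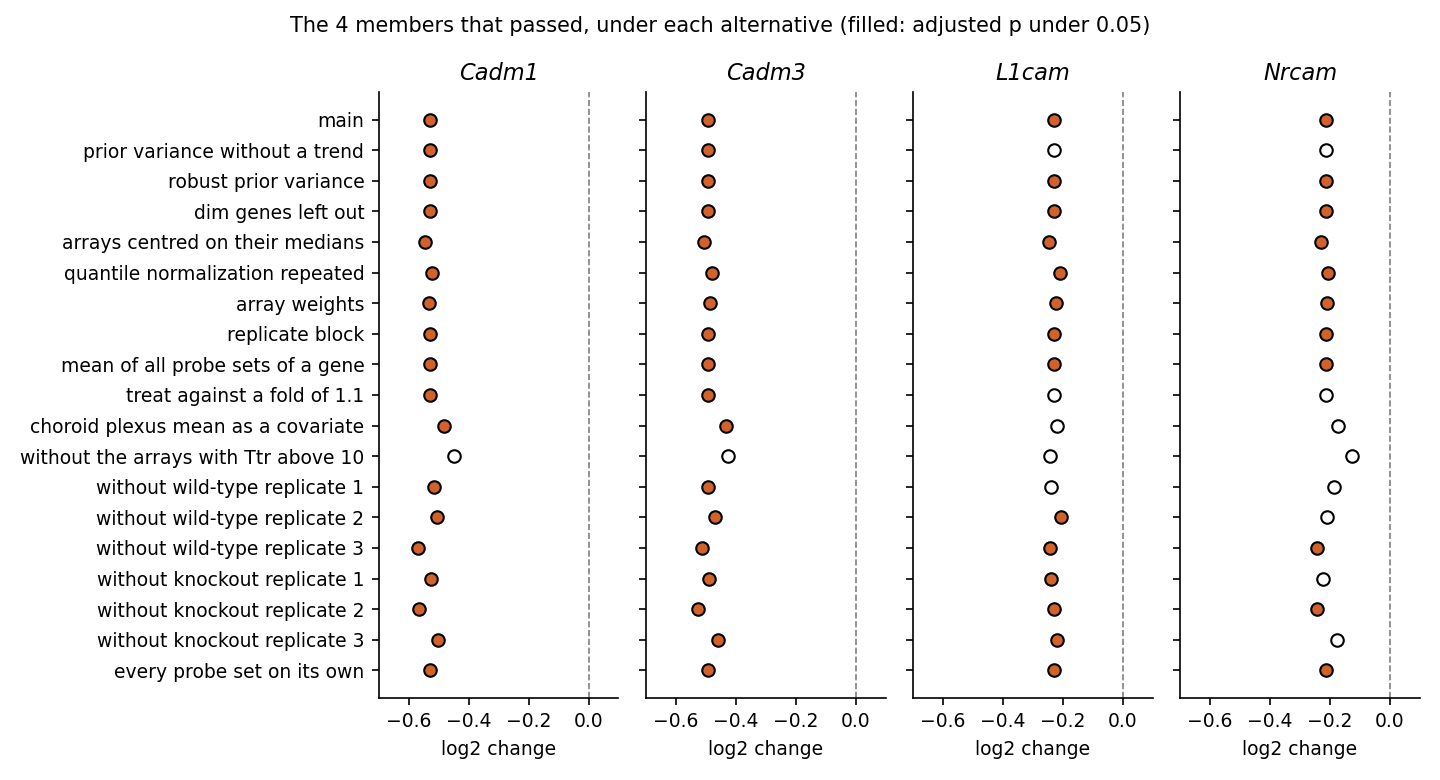
Log2 change of Cadm1, Cadm3, L1cam and Nrcam under each alternative setting of the analysis, filled where the adjusted p was under 0.05. All points lie below 0. Cadm1 and Cadm3 lost their call without the arrays with Ttr above 10 only, and L1cam and Nrcam under more settings.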

How the data were processed

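Total RNA of whole cerebellum was labelled with the GeneChip WT PLUS kit and hybridised to Affymetrix arrays, per the labels' protocols. The deposited values are log2 expression values, 1 per probe set and array (41345 probe sets). The submitters' processing notes name RMA and oligo and give no versions. Array filters and the genome build: not given in the sources used here. No depth or detection call came with the values, and the number of arrays limits the precision.

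GEO's platform annotation gave exactly 1 symbol to 23521 probe sets, several to 1814 and none to 16010. Of several probe sets for a gene, that with the highest mean was kept. All 22180 genes were fitted with limma 3.58.1 in R 4.3.3 (lmFit, eBayes with a trend), knockout against wild type, two-sided, with Benjamini-Hochberg adjustment over all of them and a threshold of 0.05. A gene is said to rise or fall if it passed. In simulated data, 21980 of the 22180 genes were left unshifted. There the fit called 13.4% of 67 genes shifted by 0.3, 61.2% of 67 shifted by 0.5 and 87.9% of 66 shifted by 1. In the real data 1479 genes passed, so the adjustment was less strict and these shares do not carry over.

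The members and gene lists were chosen with earlier results of these data known. Named genes are all members, up to 4 genes per related list that passed, by smallest p, or 2 where none did, and Crebbp. Genes named outside this rule are said to be so, apart from Zic1, Calb1 and Ttr, the markers used to describe the arrays. The main fit did not pair the samples by replicate number. Deviations of same-numbered arrays from their group means correlated at 0.01, 0.03 and -0.13 over genes, which cannot settle whether they were paired. Alternatives covered the prior, a filter on dim genes, scaling, array weights, a replicate block, the probe set per gene, 2 other thresholds, a test against a fold of 1.1, choroid plexus RNA and each array left out. Promoters were searched in Python 3.11.15.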

Additional observations from a re-analysis of the deposited data

How the results depend on the processing

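With each array left out, 2 to 4 members fell, and over all genes 199 to 478 rose and 366 to 800 fell. Members that fell numbered 2 with a prior variance without a trend, 2 in the test against a fold of 1.1, 2 with the choroid plexus covariate, 2 at an adjusted p under 0.01 and 0 without the arrays with high Ttr. Related genes that fell numbered 10, 9, 10, 11 and 3 of 74 under these settings in turn, and 10 to 19 with 1 array left out, against 20. Over all genes, the counts that rose and fell were 184 and 310, 108 and 216, 252 and 297, 148 and 343, and 112 and 124 under these settings in turn, and 1023 rose at an adjusted p under 0.1. L1cam and Nrcam lost their calls under the same settings, with changes of -0.23 and -0.21 under the first 2 and at 0.01, -0.22 and -0.17 with the covariate, and -0.24 and -0.13 without the arrays with high Ttr. Cadm1 and Cadm3 were at -0.45 and -0.42 in the latter. With 1 array left out, L1cam ran from -0.24 to -0.21 and Nrcam from -0.24 to -0.18. Chl1 turned to 0.0013 after repeated quantile normalization, 0.0026 with array weights, 0.052 with the covariate, 0.037 without the arrays with high Ttr, and ran from -0.053 to 0.036 with 1 array left out. Ncam2 turned to 0.061 without the arrays with high Ttr. With the replicate number as a block 4 members fell, and over all genes 723 rose and 1078 fell. The member calls were the same as without the block, and Cadm4 had an adjusted p of 0.0609. The causes were not tested, except that leaving out arrays leaves fewer samples.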
